A study of Paracentrotus lividus with 19 samples.

Results

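Respiratory complex I of the sea urchin Paracentrotus lividus was followed here through 3 transcript features of embryos raised for 24 h, named NDUFS7, NDUS7 and NU6M in the deposited count table, out of 63389 features in all. They were chosen by name, and the choice was made with the results of NDUFS7 in ZnSO4 embryos against control and in ZnO embryos against ZnSO4 embryos already known. Those 2 contrasts are therefore described below for every feature and not tested. A wider list of 17 oxidative phosphorylation features, 10 of them of complex I, serves as their setting.

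Complex I is the entry point of the mitochondrial respiratory chain, where electrons from NADH pass to ubiquinone while protons are pumped across the inner membrane. Its subunits come from both genomes of the cell, most from nuclear genes and a core of membrane subunits from the mitochondrial DNA, so that transcripts of both kinds are needed to build it. In early embryos mitochondria are largely supplied by the egg.

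Fertilized eggs were kept for 24 h with ZnO nanoparticles (3 libraries) or ZnSO4 (4 libraries), both labelled 0.8 mg/L zinc, with Fe2O3 nanoparticles (4 libraries) or FeCl3 (4 libraries), both labelled 4 mg/L iron, or with none of these (control, 4 libraries). The labels also give the particle doses as 1e-05 M ZnO and 5e-05 M Fe2O3, which do not convert exactly into those metal concentrations, so the match in dose between a particle and its salt is known only as labelled. Each library came from about 6000 embryos by poly(A) selection, with RNA integrity numbers above 9, and its title also carries a set, F3 (5 libraries), F2 (5) or F1 (9), which the labels do not explain. F3 and F2 hold 1 library per treatment, and F1 holds 2 except for ZnO, which has 1. The labels do not say whether the libraries come from separate cultures, and the p-values cover the variation among these libraries alone, which may be technical. In bulk RNA of whole embryos, fewer cells of a type and less RNA per cell cannot be told apart.

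Libraries held 24438369 to 32801015 counts each. Of 21 features named after sea urchin embryo marker genes, such as the gut gene ENDO16 and the spicule matrix genes SM30 and SM37, 17 had counts in all 19 libraries. All 17 oxidative phosphorylation features passed the filter on low counts, which left 62865 features for testing. Levels are given as CPM, counts divided by the scaled library size, without correction for transcript length, so levels of different features are not compared with each other. A feature is called changed where edgeR's quasi-likelihood test gave a Benjamini-Hochberg adjusted p below 0.05 over all features tested.

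NDUFS7 is the symbol, and NDUS7 the protein-database name, of the nuclear-encoded iron-sulfur subunit that carries the last iron-sulfur cluster before ubiquinone. Whether the features of these names are separate genes, variants of 1 gene or fragments of 1 transcript is not given in the sources used here. NU6M is the protein-database name of ND6, a membrane subunit encoded by the mitochondrial DNA. The handling of reads that match several features and the strand setting of the counting are likewise not given, so values of same-named or antisense features are uncertain to that extent.

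NDUFS7 was highest in set F2, and in each set the library farthest from the control was a zinc library. In F3 it stood at 112 CPM in the ZnO library, 83.6 CPM with ZnSO4, 85.0 CPM with Fe2O3, 82.4 CPM with FeCl3 and 84.6 CPM in the control. In F2 it stood at 379.9 CPM with ZnO, 205 CPM with ZnSO4, 293 CPM with Fe2O3, 294 CPM with FeCl3 and 286.5 CPM in the control. In F1 it stood at 58.5 CPM with ZnO, 40.8 and 42.4 CPM with ZnSO4, 67.0 and 73.1 CPM with Fe2O3, 71.2 and 71.4 CPM with FeCl3, and 69.9 and 75.9 CPM in the controls. The ZnO library was the highest of its set in F3 and F2 but not in F1, the ZnSO4 libraries were the lowest in F2 and F1, and the iron libraries lay close to the controls in every set. No library of 1 set reached the range of another.

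NDUS7 varied far less. In F3 it stood at 93.4 CPM with ZnO, 90.7 CPM with ZnSO4, 90.9 CPM with Fe2O3, 87.6 CPM with FeCl3 and 89.9 CPM in the control. In F2 the values were 106 CPM with ZnO, 100.4 CPM with ZnSO4, 102 CPM with Fe2O3, 107 CPM with FeCl3 and 100.8 CPM in the control. In F1 they were 70.7 CPM with ZnO, 64.9 and 68.4 CPM with ZnSO4, 65.9 and 65.5 CPM with Fe2O3, 63.8 and 64.6 CPM with FeCl3, and 67.3 and 64.9 CPM in the controls. The sets did not overlap here either, and within each set the treatments lay close together. After set and treatment were fitted, the SD left on the log2 CPM scale was 0.20 for NDUFS7 and 0.036 for NDUS7, against a median of 0.24 over all features tested. That median takes in features of every level, low ones included, so it does not show where NDUFS7 stands among features of similar level.

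NU6M was abundant in F3 and F1 and almost without counts in F2. The F2 libraries held 2 counts with ZnO, 3 with ZnSO4, 0 with Fe2O3, 1 with FeCl3 and 1 in the control. The count of 0 allows a level of up to 0.117 CPM (3 counts), a limit that covers counting error only. In F3 it stood at 205.5 CPM with ZnO, 209 CPM with ZnSO4, 185 CPM with Fe2O3, 178 CPM with FeCl3 and 194 CPM in the control.

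In F1 NU6M stood at 285 CPM with ZnO, 250.1 and 261 CPM with ZnSO4, 209 and 225 CPM with Fe2O3, 226 and 218 CPM with FeCl3, and 235 and 267 CPM in the controls. F3 and F1 overlapped slightly, and every F2 library lay below both. In both F3 and F1 the iron libraries lay below every control and every zinc library of their set. This order was noticed in the values, and how many other features share it was not counted.

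**Figure D1:**
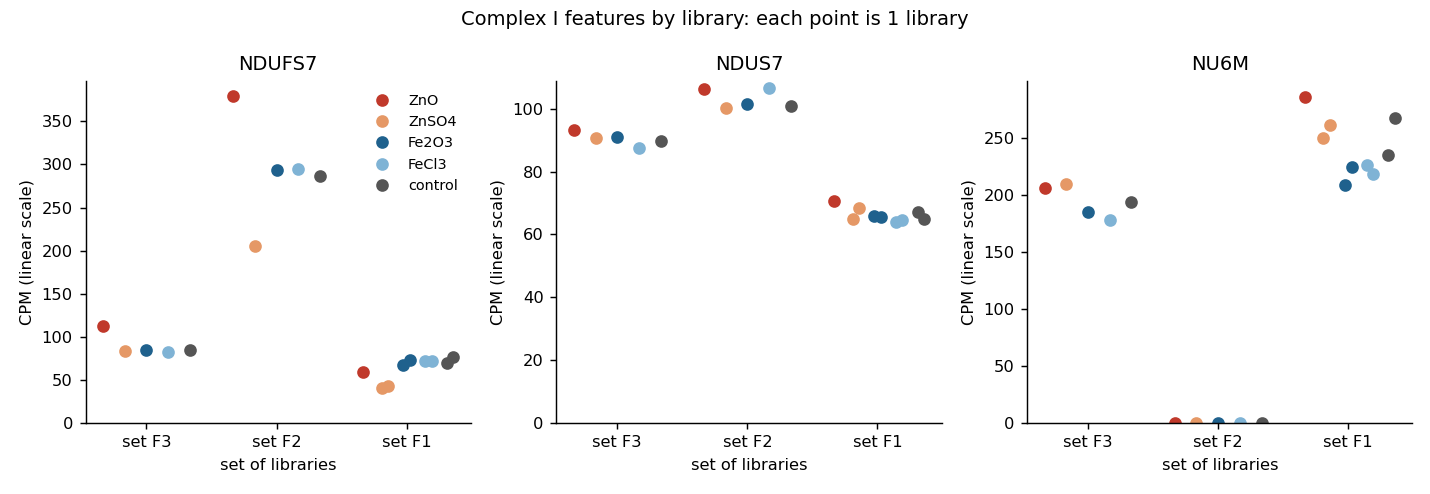
Level of NDUFS7, NDUS7 and NU6M in each of the 19 libraries, in CPM on a linear axis that starts at 0; each point is 1 library, placed by set and coloured by treatment. NDUFS7 was highest in F2 at 205 to 379.9 CPM, NDUS7 kept within a narrow band in each set, and NU6M had 0 to 3 counts in every F2 library.

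The first comparison asks how far the sets themselves differ. NDUFS7 averaged 291.9 ± 61.8 CPM in F2 and 63.3 ± 13.3 CPM in F1 (SD, n = 5 and 9). It rose by 2.18 ± 0.09 on the log2 scale in F2 against F1 (SE; edgeR's quasi-likelihood test, adjusted p = 4.14e-16), or 4.53-fold. With 89.6 ± 12.8 CPM in F3 (SD, n = 5), it was higher in F3 than in F1 by 0.50 ± 0.09 (edgeR's quasi-likelihood test, adjusted p = 3.65e-05) and lower in F3 than in F2, with a log2 fold change of -1.68 ± 0.11 (adjusted p = 1.98e-12).

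NDUS7 kept the same order of sets with smaller steps. It averaged 90.5 ± 2.1 CPM in F3, 103 ± 3.1 CPM in F2 and 66.2 ± 2.2 CPM in F1 (SD, n = 5, 5 and 9). The log2 fold changes were 0.63 ± 0.04 in F2 against F1, 0.44 ± 0.04 in F3 against F1 and -0.19 ± 0.05 in F3 against F2, each past the threshold by edgeR's quasi-likelihood test (adjusted p = 4.7e-12, 2.92e-09 and 0.00186). The ratio of NDUFS7 to NDUS7 counts, whose absolute size depends on lengths that were not used here, ran from 0.922 to 1.204 in F3, from 2.05 to 3.58 in F2 and from 0.619 to 1.17 in F1. The F2 ratios lay above all others, and those of F3 and F1 overlapped.

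Differences between sets were common throughout the table. In F2 against F1, 70.5% of all features tested were called, in F3 against F1 69.4% and in F3 against F2 64.2%. All 3 complex I features were called in all 3 comparisons, and a call alone sets them little apart from that background. By size, 12.2% of features had a log2 fold change at least as large as that of NDUFS7 in F2 against F1, where the median size over all features was 0.58. For NDUS7 that share was 47.0%, so its difference was close to the middle of the table. In F3 against F1 the shares were 53.5% for NDUFS7 and 57.3% for NDUS7.

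For NU6M the 5 F2 libraries held 7 counts together, against 63062 in the 9 F1 libraries. The pooled level was 0.0527 CPM in F2 and 242 CPM in F1, so that F1 exceeded F2 4590-fold (95% counting interval of the ratio 2228 to 11420). F3, with 27717 counts in 5 libraries, exceeded F2 3693-fold (1792 to 9186), and both differences were called by edgeR's quasi-likelihood test (adjusted p = 6.99e-26 in F2 against F1 and 2.13e-25 in F3 against F2). Between the sets that hold it, NU6M averaged 194 ± 13.3 CPM in F3 and 242 ± 25.5 CPM in F1 (SD, n = 5 and 9), a log2 fold change of -0.33 ± 0.06 (edgeR's quasi-likelihood test, adjusted p = 2.49e-05).

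Few features matched the near absence of NU6M from 1 set. The limits used were drawn from its own counts, which in part fixes how rare the pattern appears. With at most 3 counts in every F2 library and at least 100 in every other library, limits chosen after its values were seen, 5 features followed this pattern, which is 0.0225% of the 22262 features with at least 100 counts in every F3 and F1 library. NU6M had the most counts of the 5 and was the 1 that carries a gene name, out of 489 such named features. The corresponding pattern of near absence from F3 was found in 7 features and from F1 in 8, none with a gene name. In F2 against F1, 0.00318% of features had a fitted difference at least as large as NU6M, itself included.

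**Figure D2:**
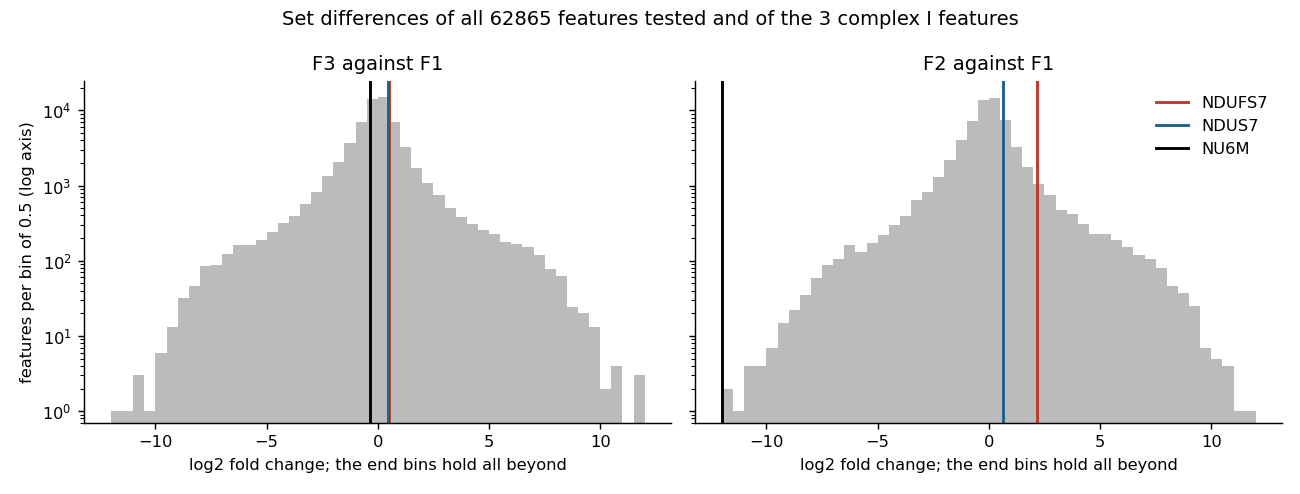
Number of features per bin of log2 fold change for F3 against F1 (left) and F2 against F1 (right), over the 62865 features tested, on a log count axis; vertical lines mark NDUFS7, NDUS7 and NU6M. The first 2 stand within the body of both distributions, while NU6M stands at the low end in F2 against F1 and close to 0 in F3 against F1.

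The other mitochondrial-encoded features did not share that absence. NU5M, the name of the membrane subunit ND5, has 2 features, and NU5M.1.2 was higher in F2 than in F1 by 0.66 ± 0.04, while NU5M.2.2 had a log2 fold change of -0.28 ± 0.04 (edgeR's quasi-likelihood test, adjusted p = 1.74e-13 and 6.75e-07). The ratio of NU5M.1.2 to NU5M.2.2 counts was 1.70 to 1.75 in F3, 4.01 to 4.16 in F2 and 2.08 to 2.19 in F1, with no overlap between sets. Taken as 1 name, NU5M had a median of 24830 CPM in F3, 24350 CPM in F2 and 18520 CPM in F1. CYB, the name of the cytochrome b subunit of complex III, averaged 2959 ± 84.9 CPM in F3, 3655 ± 77.8 CPM in F2 and 3140 ± 202 CPM in F1 (SD, n = 5, 5 and 9).

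All 4 mitochondrial-encoded features together took 2.62 to 2.76% of counts in F3, 2.83 to 3.02% in F2 and 2.02 to 2.42% in F1. Their summed counts rose by 0.38 ± 0.04 in F2 against F1 and by 0.36 ± 0.04 in F3 against F1 (log2, edgeR's quasi-likelihood test, adjusted p = 2.07e-09 and 6.7e-09). The difference between F3 and F2 was -0.02 ± 0.04 (adjusted p = 0.63, 95% interval -0.11 to 0.06). The 13 nuclear-encoded features, summed, were higher by 0.31 ± 0.04 in F2 against F1 and by 0.13 ± 0.04 in F3 against F1 (adjusted p = 2.06e-07 and 0.00483). In F3 against F2 the nuclear sum fell by 0.18 on the log2 scale, with an SE of 0.04 (adjusted p = 0.00133). NDUFS7 is part of that sum and weighs on these differences. Without NDUFS7, the sum in the controls was 716 CPM in F3, 585 CPM in F2 and 662 CPM in F1 (mean of the F1 controls). With ZnO it was 730.5, 613.6 and 757.4 CPM in the same order. F2, highest by the full sum, was then lowest in both groups. The sum without NDUFS7 was not tested.

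Single nuclear-encoded subunits went in opposite directions behind those sums. NDUFA2, a small accessory subunit of complex I, averaged 2.96 ± 0.62 CPM in F3, 2.66 ± 0.44 CPM in F2 and 8.26 ± 0.73 CPM in F1 (SD, n = 5, 5 and 9). It was lower in both F3 and F2 than in F1, with log2 fold changes of -1.48 ± 0.12 and -1.64 ± 0.12 (edgeR's quasi-likelihood test, adjusted p = 1.15e-10 and 2.8e-11). NDUFB2, an accessory subunit of the membrane arm, has 2 features that moved apart in F3 against F1, with -1.46 ± 0.08 for NDUFB2.1.2 and 1.82 ± 0.07 for NDUFB2.2.2 (adjusted p = 2.06e-13 and 1.32e-16). Added together under 1 name, they had a median of 38.6 CPM in F3, 17.2 CPM in F2 and 25.3 CPM in F1.

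Both features of NDUFA7, another accessory subunit, were lower in F3 than in F1, with log2 fold changes of -0.52 ± 0.06 for NDUFA7.1.2 and -1.36 ± 0.06 for NDUFA7.2.2 (edgeR's quasi-likelihood test, adjusted p = 3.8e-08 and 1.89e-15). Added together they had a median of 34.8 CPM in F3, 48.7 CPM in F2 and 64.5 CPM in F1. The 4 features of COX6C, a subunit of cytochrome c oxidase (complex IV), ranged from -1.73 ± 0.07 for COX6C.4.4 to 1.90 ± 0.07 for COX6C.2.4 in F3 against F1 (adjusted p = 1.55e-16 and 5.65e-17), while their sum had medians of 171 CPM in F3, 136 CPM in F2 and 162 CPM in F1. For NDUFB2 and COX6C the single features thus lay farther apart between F3 and F1 than their sums.

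Of the 10 complex I features, 4 were higher and 6 lower in F2 against F1, where 35.3% of all features were called higher and 35.2% lower. In F3 against F1 the split was 5 and 5, against 34.8% and 34.6% of all features, and in F3 against F2 it was 3 higher, 5 lower and 2 not called, against 32.2% and 32.0%. Over the 17 listed features, 7 were higher and 9 lower in F2 against F1, 8 and 8 in F3 against F1, and 7 and 7 in F3 against F2. The median log2 fold change of the 17 was -0.14 in F2 against F1 and 0.03 in F3 against F1, where the medians over all features were 0.0011 and 0.0020. ATPB and ATP5J2, subunits of ATP synthase (complex V), had unlike values in F3 against F1, with 0.03 ± 0.06 for ATPB and 1.55 ± 0.05 for ATP5J2 (edgeR's quasi-likelihood test, adjusted p = 0.675 and 2.65e-17).

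**Figure D3:**
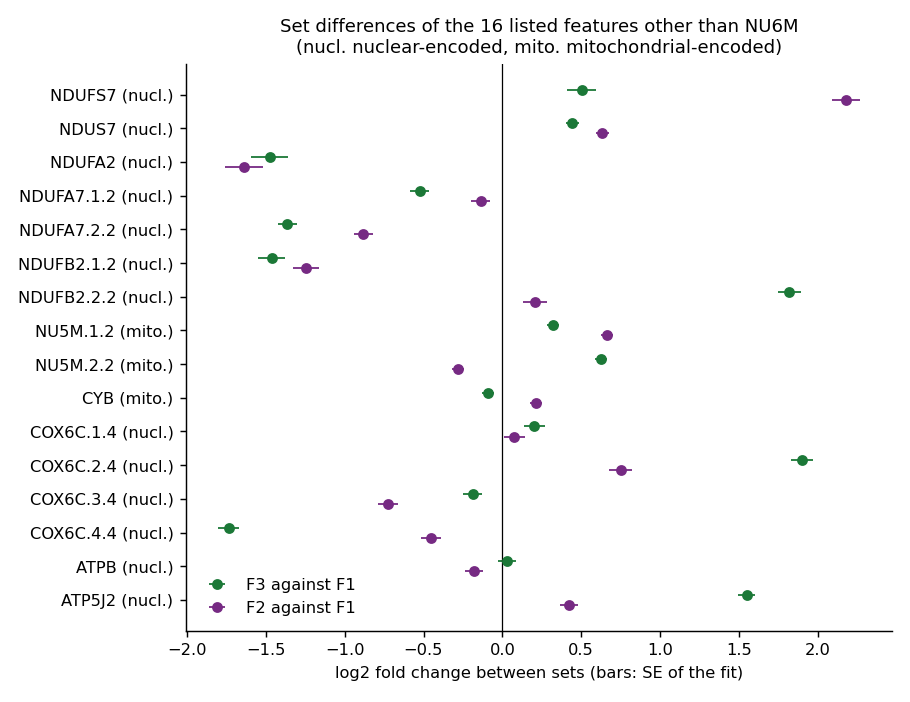
Fitted log2 fold change of 16 listed features, all but NU6M, in F3 against F1 (green) and F2 against F1 (purple), with bars of 1 SE; nuclear-encoded and mitochondrial-encoded features are marked beside the names. The features of NDUFB2 lie on opposite sides of 0 in F3 against F1, at -1.46 and 1.82, while those of NDUFA7 both lie below 0.

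The second comparison asks whether metal exposure changed these transcripts, with the set held fixed. All treatment contrasts against the control share the same 4 control libraries. With the sets weighted equally, NDUFS7 averaged 184 ± 172 CPM in ZnO embryos and 148 ± 120.1 CPM in control embryos (SD over 3 sets). NDUS7 averaged 90.1 ± 18.0 CPM in ZnO embryos and 85.6 ± 17.8 CPM in control embryos. For both features the spread over sets was wider than the gap between the treatments. The log2 fold changes in ZnO against control were 0.14 ± 0.13 for NDUFS7 (95% interval -0.12 to 0.40), 0.07 ± 0.06 for NDUS7 (-0.05 to 0.20) and 0.14 ± 0.09 for NU6M (-0.06 to 0.33), and none was called by edgeR's quasi-likelihood test (adjusted p = 0.771, 0.73 and 0.662). In the fit, this contrast equals the sum of the 2 contrasts that chose NDUFS7. For NDUFS7 its value was therefore fixed by results already known, and its test adds no independent evidence. The NDUFS7 value was 0.32 without the F1 ZnO library and 0.02 without the F2 ZnO library, and it was called in neither case (adjusted p = 0.374 and 0.983). Over the alternatives other than single libraries left out, its value ran from 0.01 to 0.51. The lowest adjusted p among them, by edgeR's quasi-likelihood test or DESeq2's Wald test, was 0.0588, close to the threshold. The absence of a call thus depends in part on the setting.

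Of the 17 listed features, 0 were called in ZnO against control by edgeR's quasi-likelihood test and 0 by DESeq2, where 2.09% of all features tested were called by edgeR. At an unadjusted p below 0.05 there were 2, NDUFA7.1.2 with 0.20 ± 0.08 and COX6C.3.4 with 0.18 ± 0.08. Over all features tested, 11.5% had an unadjusted p below 0.05, so these 2 do not set the list apart from that background. The median of the 17 was 0.08, beside 0.0041 over all features. In the plot of treatment differences 16 of the values lie above 0, NDUFA2 at 0.0012 among them. The 17 values share the same ZnO and control libraries, and several are features of 1 name, so they are not independent. The matching count over all features was not made. The summed mitochondrial-encoded features differed by 0.08 ± 0.05 and the summed nuclear-encoded ones by 0.13 ± 0.05, neither called by edgeR's quasi-likelihood test (adjusted p = 0.584 and 0.305, 95% intervals -0.02 to 0.19 and 0.02 to 0.24). The nuclear sum stood at 842.9 CPM with ZnO and 800.8 CPM in the control in F3, at 993.5 and 872 CPM in F2, and at 816 CPM with ZnO and 702 and 767 CPM in the controls in F1, so the ZnO library was the higher one in each set. NDUFS7 is part of that sum and made up 27.8 of the 42.1 CPM between ZnO and control in F3 and 93.4 of the 122 CPM in F2, while in F1 it differed by -14.5 CPM and the sum by 81.3 CPM.

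In Fe2O3 and FeCl3 embryos the 95% intervals of the differences of NDUFS7 and NDUS7, the nuclear-encoded features of the 3, spanned 0. NDUFS7 averaged 149.5 ± 125 CPM with Fe2O3, 149 ± 126 CPM with FeCl3 and 148 ± 120.1 CPM in the control (SD over 3 sets, equal weights). Its log2 fold changes were -0.02 ± 0.12 in Fe2O3 against control (95% interval -0.26 to 0.22) and -0.02 ± 0.12 in FeCl3 against control (-0.26 to 0.22). For NDUS7 they were 0.0030 ± 0.06 (-0.11 to 0.12) and -0.01 ± 0.06 (-0.12 to 0.11). Fe2O3 and FeCl3 embryos differed from each other by -0.01 ± 0.12 for NDUFS7 (-0.24 to 0.23), 0.01 ± 0.06 for NDUS7 (-0.10 to 0.13) and -0.01 ± 0.08 for NU6M (-0.19 to 0.16).

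NU6M had the largest iron differences of the 3 features. In the 2 sets that hold it, F3 and F1, the level was below the controls of the same set in each of the 3 Fe2O3 and 3 FeCl3 libraries. The share of all features with that order was not counted. The log2 fold changes were -0.17 ± 0.08 in Fe2O3 against control (95% interval -0.34 to 0.01) and -0.16 ± 0.08 in FeCl3 against control (-0.33 to 0.02). Neither was called by edgeR's quasi-likelihood test (adjusted p = 1 and 0.999, unadjusted p = 0.0572 and 0.0756).

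No listed feature was called in any iron contrast. In Fe2O3 against control the counts among the 17 were 0 by edgeR's quasi-likelihood test, 0 by DESeq2 and 0 at an unadjusted p below 0.05. Over all features edgeR and DESeq2 also called 0 there (0%), with 1821 (2.9%) at an unadjusted p below 0.05. In FeCl3 against control edgeR called 0.027% of all features, and in Fe2O3 against FeCl3 0.0732%. In both, the 17 likewise gave 0 by edgeR, 0 by DESeq2 and 0 unadjusted. Over all features, 4.38% and 3.11% were below 0.05 unadjusted. The median of the 17 was -0.0043 in Fe2O3 against control and -0.0059 in FeCl3 against control, beside 6.1e-05 and 0.0062 over all features.

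**Figure D4:**
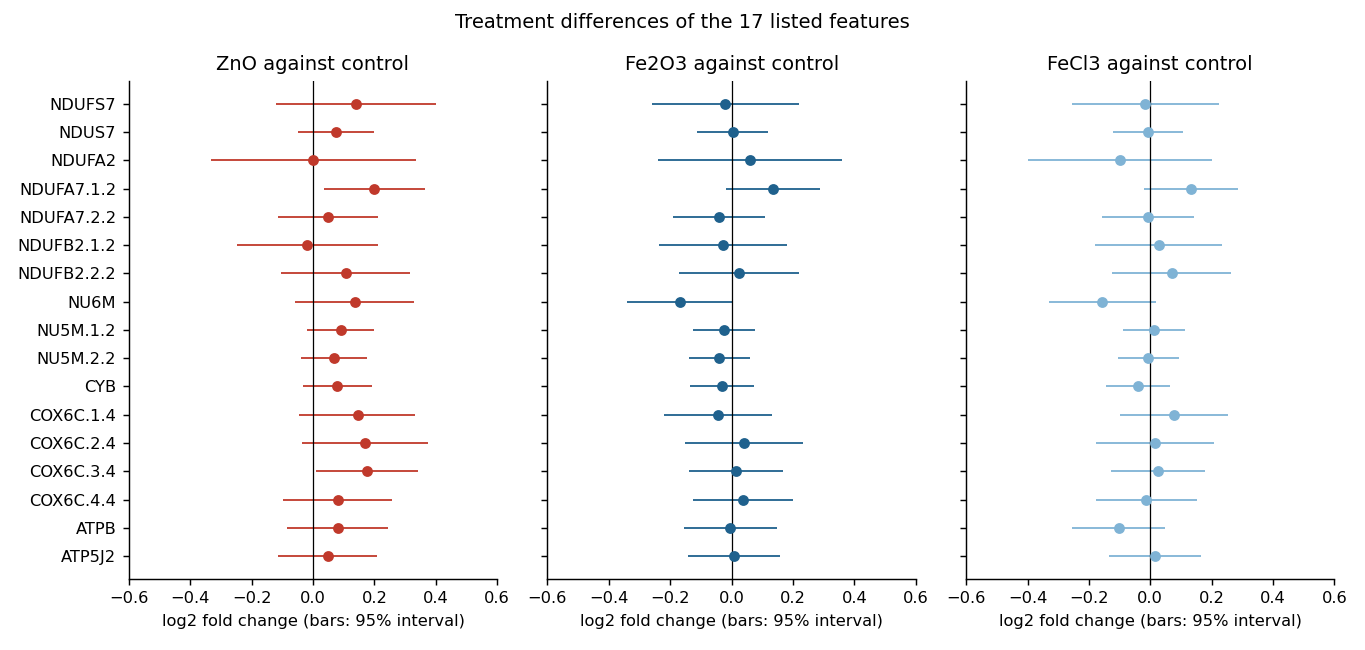
Fitted log2 fold change of the 17 listed features in ZnO, Fe2O3 and FeCl3 embryos against control, with bars of the 95% interval. None was called; NU6M lies at 0.14 with ZnO and at -0.17 and -0.16 with the iron treatments.

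The zinc salt and the contrast of both zinc forms chose NDUFS7 and are given as a description only. In ZnSO4 embryos, sets weighted equally, NDUFS7 averaged 110.2 ± 85.1 CPM, against 148 ± 120.1 CPM in control embryos (SD over 3 sets), a fitted log2 fold change of -0.52 ± 0.12, or 0.70-fold. By set the difference was -0.02 in F3, -0.48 in F2 and -0.81 in F1, so F3 took almost no part in it. Without the F1 libraries the fitted value was -0.25. NDUS7 differed by 0.01 ± 0.06 and NU6M by 0.07 ± 0.08 in the same contrast.

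In ZnO against ZnSO4 embryos NDUFS7 differed by 0.66 ± 0.12, or 1.58-fold, with 0.43 in F3, 0.89 in F2 and 0.49 in F1. The ZnO library lay above the ZnSO4 libraries in every set. NDUS7 differed by 0.07 ± 0.06 and NU6M by 0.07 ± 0.09. For scale, 5.42% of all features tested were called in ZnSO4 against control and 0.0779% in ZnO against ZnSO4. Nothing about NDUFS7 is read from these shares, since it was chosen on these contrasts. The summed mitochondrial-encoded features differed by 0.07 ± 0.05 in ZnSO4 against control and by 0.01 ± 0.05 in ZnO against ZnSO4, and the nuclear-encoded ones by -0.01 ± 0.05 and 0.14 ± 0.05. The nuclear-encoded sum holds NDUFS7, which was chosen on these contrasts. With sets weighted equally, that sum averaged 884 CPM with ZnO and 801 CPM with ZnSO4, of which NDUFS7 supplied 184 and 110.2 CPM. Most of that gap thus came from NDUFS7.

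The third comparison asks whether a treatment had the same effect in the 3 sets. In ZnO against control NDUFS7 differed by 0.41 in F3, by 0.41 in F2 and by -0.32 in F1, opposite in direction in F1. The set-by-ZnO terms were called for NDUFS7 (edgeR's quasi-likelihood test, adjusted p = 0.00302), as for 1.42% of all features tested, and the adjusted p ran from 0.000339 to 0.0238 over the 20 alternatives that kept the F1 ZnO library. Without that library, the F3 and F2 effects that remained differed by 0.0029 (edgeR's quasi-likelihood test, adjusted p = 1), so the call rests on it. Each ZnO effect is that of 1 ZnO library per set, against 1 control in F3 and in F2, the spread comes from the F1 pairs alone, with 4 residual degrees of freedom, and the libraries are among those that chose NDUFS7. For NDUS7 the differences were 0.06 in F3, 0.08 in F2 and 0.10 in F1, and its terms were not called (adjusted p = 1).

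NDUFS7 was the 1 feature of the 17 with called set-by-ZnO terms, beside 1.42% of all features tested. It was chosen on zinc contrasts of these libraries, so this count does not set it apart from the list. For NU6M the adjusted p by edgeR's quasi-likelihood test was 0.92. The set-by-Fe2O3 terms were called for 0.00159% of all features and the set-by-FeCl3 terms for 0%. For NDUFS7 the Fe2O3 differences against control were 0.0065 in F3, 0.03 in F2 and -0.06 in F1, and those of FeCl3 were -0.04 in F3, 0.04 in F2 and -0.03 in F1.

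**Figure D5:**
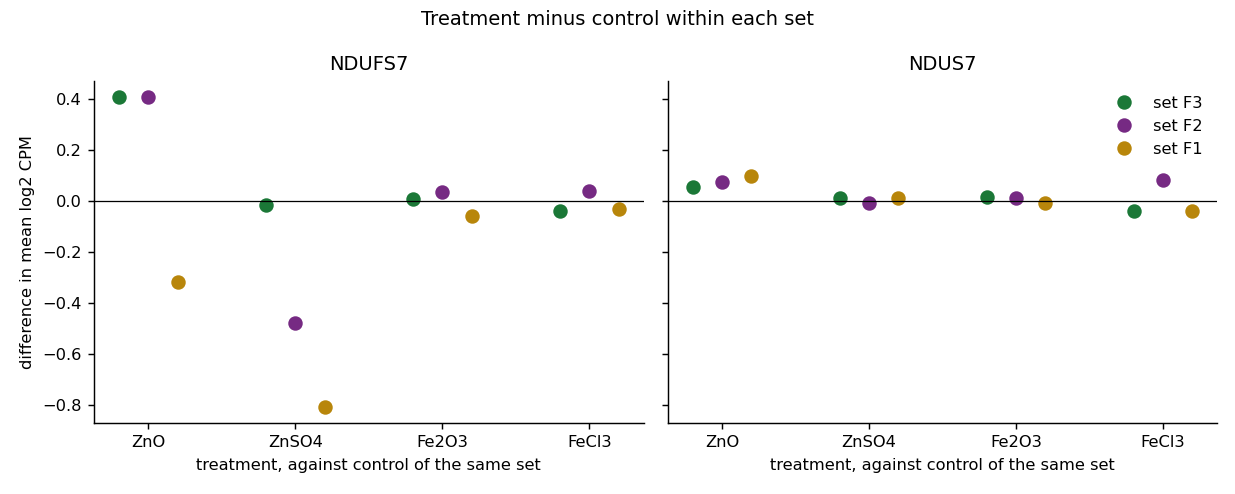
Treatment minus control of the same set in mean log2 CPM for NDUFS7 (left) and NDUS7 (right); each point is 1 set. NDUFS7 spread from -0.81 to 0.41 over the zinc treatments and stayed near 0 with both iron treatments, while NDUS7 stayed between -0.04 and 0.10 throughout.

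Within sets, the 3 features varied together to different degrees. Over the 19 libraries with set means removed, Pearson's r of log2 CPM was 0.07 between NDUFS7 and NDUS7, -0.23 between NDUFS7 and NU6M and 0.25 between NDUS7 and NU6M, and the last was 0.63 over the 14 libraries of F3 and F1, where NU6M has counts. These values and those that follow are descriptions over libraries that share treatments and sets. Treatment differences were left in, so correlations with NDUFS7 include the zinc differences on which it was chosen. Among 509 features with a gene name and a mean log2 CPM of at least 1, those most alike NDUFS7 were CHK1, a cell cycle checkpoint kinase (r = 0.88), EVE, a homeobox gene (0.87), and FGFR.2.3, named after the fibroblast growth factor receptor (0.84). NDUS7 was most like ACTC.1.2, an actin (0.73), BMP1, an astacin protease (0.67), and MMP14.3.5, a matrix metalloproteinase (0.66).

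For NU6M the 3 most alike over 19 libraries were MT.15.23 (r = 0.84), CALRET (0.83) and MT.6.23 (0.82), a ranking that includes the 0 to 3 counts of F2. Over the 14 libraries of F3 and F1 they were CYTB.3.3 (0.91), ACT1.1.2, an actin (0.90), and CYB, the mitochondrial-encoded cytochrome b (0.90). The name CYTB stands for cytochrome b or for cystatin B, and which is meant is not given in the sources used here.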

How the data were processed

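Poly(A) RNA-seq libraries of whole embryos were quantified by the submitters as whole-number counts per transcript feature, deposited by the authors without normalization. The submitters' processing notes list SAMtools 1.3.1, Trim Galore 0.4.0 and BWA 0.7.12-r1039 with no role for each. Which reference, counter and strand setting were used is not given in the sources used here. Group and set came from the library titles.

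From these counts, edgeR 4.0.16 (R 4.3.3) was run on all 19 libraries with set and treatment as terms, 12 residual degrees of freedom, TMM scaling and the filterByExpr filter, and Benjamini-Hochberg adjustment over 62865 features. Set-by-treatment terms were tested in a second model. SEs are the log2 fold change over the root of F, and summed lists were entered as 1 further feature. The interval of the NU6M ratio and the floor of its 0 count cover counting error only, while intervals of fitted differences cover the spread between libraries. The scripts were tested on simulated data.

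The features named are the 3 complex I features, the oxidative phosphorylation list, and for each of the 3 the 3 gene-named features with the highest correlation. Members and lists were chosen with earlier results of these data known. The 3 CYTB features were left out of the list, since the name is ambiguous. The paired F1 libraries differed beyond sampling noise and were kept separate. Alternatives were RLE scaling, DESeq2 1.42.0, other filters, no set term, subsets of libraries, summed F1 pairs, a replicate block and each library or set left out. For the set-by-ZnO terms of NDUFS7, alternatives were limited to scaling, filters, DESeq2, set F2 or F3 left out, and libraries left out other than the ZnO libraries and the F3 and F2 controls. The F1 ZnO library was left out in a separate fit.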

Additional observations from a re-analysis of the deposited data

Results flagged for a closer look

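NDUFS7 drew attention in 4 groups in which 1 library stood far from the others. The F2 library was the highest of the 4 Fe2O3 libraries at 293.4 CPM, of the 4 FeCl3 libraries at 294.3 CPM and of the 4 control libraries at 286.5 CPM, so that each of these repeats the difference of set F2 from F3 and F1. Among the 5 F3 libraries, the ZnO library stood above the rest at 112.4 CPM. The summed nuclear-encoded features stood highest in the F2 ZnO library among the 5 F2 libraries, at 993.5 CPM, of which NDUFS7 supplied 379.9 CPM. In all, 5 such libraries came from 35 groups examined. The limits allow about 5% of groups by chance where the libraries of a group are alike. Treatment groups mix sets that differ, so that share does not apply to them. No excess over chance is read from the count. The ZnO effect on NDUFS7 differed between the sets by the test of the set-by-ZnO terms (edgeR's quasi-likelihood test, adjusted p = 0.00302), with 0.41 in F3, 0.41 in F2 and -0.32 in F1 on the log2 scale. Each of these rests on 1 ZnO library, the spread comes from the F1 pairs alone, and the libraries are among those that chose NDUFS7. Without the F1 ZnO library, F3 and F2 differed by 0.0029 (adjusted p = 1).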

How the results depend on the processing

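Over the 30 tested results, 693 of 741 alternative values kept direction and side of the threshold and 48 turned direction. Over the 10 results described without a test, 263 of 266 values stayed within the spread between libraries, with no threshold applied, and 3 moved beyond it. Every one that turned was uncalled both ways (largest size 0.0879, lowest adjusted p 0.986), and the cause was not tested. Without a set term, NDUFS7 was at 0.00387 in Fe2O3 against control, 0.00624 in FeCl3 against control and 0.981 in ZnO against ZnSO4. In the same setting NDUS7 was at 0.153 in ZnO against ZnSO4, NU6M at -0.0879 in ZnO against control and the mitochondrial-encoded sum at 0.00436 in FeCl3 against control. Without set F1, NDUFS7 was at 0.0226 in Fe2O3 against control, 0.0279 in Fe2O3 against FeCl3 and -0.248 in ZnSO4 against control. NDUS7 was then at 0.0154 in FeCl3 against control and -0.000133 in Fe2O3 against FeCl3, and NU6M at 0.0456 in Fe2O3 against FeCl3. Without set F3, NDUS7 was at -0.00258 in Fe2O3 against control and -0.00256 in Fe2O3 against FeCl3. With the F1 pairs summed, Fe2O3 against FeCl3 gave 0.00392 for NDUFS7 and 0.00306 for NU6M, and FeCl3 against control gave 0.000583 for NDUS7. With 1 library left out at a time, NDUFS7 ran from -0.0867 to 0.0464 in Fe2O3 against control, from -0.0808 to 0.0546 in FeCl3 against control and from -0.0774 to 0.0492 in Fe2O3 against FeCl3. For NDUS7 the ranges were -0.00666 to 0.013, -0.0407 to 0.00354 and -0.00137 to 0.0434 in the same order. NU6M ran from -0.0577 to 0.0295 in Fe2O3 against FeCl3. The mitochondrial-encoded sum ran from -0.0529 to 0.000854, from -0.0218 to 0.0236 and from -0.0559 to 0.000728 in the order used for NDUFS7, and the nuclear-encoded sum from -0.0208 to 0.0299 in Fe2O3 against control. The replicate block, with the F1 ZnO library left out, gave 0.322 for NDUFS7 in ZnO against control (edgeR's quasi-likelihood test, adjusted p = 0.419) and changed no call of the 3 features. The numbers pair the F1 libraries by label only, with correlations of -0.0723 to 0.0495 between same-numbered deviations. Called features over the whole table moved by more than 1.5 times in each treatment contrast, to between 30 and 1643 in ZnO against control (1311 as reported), 116 and 4046 in ZnSO4 against control (3405), 0 and 24 in Fe2O3 against control (0), 0 and 87 in FeCl3 against control (17), 0 and 426 in ZnO against ZnSO4 (49) and 0 and 78 in Fe2O3 against FeCl3 (46). Without set F2 and without set F3, the F1 ZnO effect on NDUFS7 differed from that of the remaining set by -0.691 and -0.716. These alternatives were chosen after seeing the data, and both keep the F1 ZnO library, on which the call rests. They cannot show whether the difference holds without that library. For NU6M the F2 libraries, of 24438369 to 27689914 counts in total, held 0 to 3 counts each, too few for a statement on treatments.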
